A study of Mus musculus with 143 samples.

Results

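The 34 genes described here encode the enzymes that build cholesterol, the proteins that sense and regulate its synthesis, and proteins that move, store or remove it. They were taken as a named list from the 41128 mouse gene entries of the count table, and each of the 34 symbols matched 1 entry and passed the filter on low counts in every fit. They fall into 8 enzymes of the mevalonate pathway, 11 enzymes of the sterol steps, 5 regulators of the sterol response (the SREBP system), 7 genes of transport, storage and turnover, and 3 genes of the oxysterol response (the LXR system).

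Polyadenylated RNA was sequenced in 143 libraries of corpus striatum, taken here as 1 library per mouse. The mice were zQ175, which carry an expanded CAG repeat knocked into their own Htt gene as a model of Huntington's disease, or wild type (WT). Mice of both genotypes received HTT-10150 (a small interfering RNA that targets Htt), received NTC (a control RNA with no target), or were left untreated. Mice of the strategy 2[4]6 were treated at 2 months and collected at 6 months of age, those of 6[4]10 were treated at 6 and collected at 10 months, and those of 2+6[8]10 were treated at 2 and 6 months and collected at 10 months. Each of the 18 groups held 8 mice, 4 of each sex, except that the HTT-10150 group of WT mice in 2+6[8]10 held 7, with 2 females and 5 males. The untreated mice of each strategy are named by the same strategy and were collected at the same ages. How the knock-in was bred, and how the small interfering RNA was delivered, is not given in the sources used here.

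Library totals ran from 12.55 M to 29.19 M counts with a median of 18.85 M. All 10 marker genes of medium spiny neurons, the principal neurons of the striatum, were detected in every library, and the least abundant of them in untreated WT mice, Drd2, had a median of 177.9 CPM (counts scaled to an equal library size). In 6 libraries a marker score for medium spiny neurons, cortical projection neurons or choroid plexus lay more than 2.5 pooled SDs from its group mean, and 5 of the 6 were from zQ175 mice. The farthest was male replicate 2 of zQ175 given HTT-10150 in 6[4]10, at -6.66 SDs for medium spiny neurons. Male replicate 2 of untreated zQ175 in 6[4]10 was not among these 6. Its slope of gene level on transcript length was -0.122, at -6.60 SDs from the mean of all libraries. Only the runs without replicate 2 left this library out. A run without a replicate number left out each library of that number, in both sexes and every group that held it. The groups were thus smaller in such runs. Htt, the target, whose counts cover both alleles, was called lower with HTT-10150 in 2+6[8]10, by edgeR's quasi-likelihood test with Benjamini-Hochberg adjustment. The log2 fold change over NTC was -0.36 ± 0.06 in zQ175 (SE, adjusted p = 0.000346) and -0.49 ± 0.06 in WT (adjusted p = 5.01e-06). In the single-dose strategies it was not called, with -0.01 (2[4]6, adjusted p = 0.993) and -0.32 (6[4]10, adjusted p = 0.602) in zQ175, and -0.26 (2[4]6, adjusted p = 0.0567) and -0.34 (6[4]10, adjusted p = 0.820) in WT.

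The brain makes its own cholesterol, because lipoproteins of the blood do not cross the blood-brain barrier. Acetyl-CoA is turned into mevalonate and then isoprenoids, squalene and lanosterol, and lanosterol is trimmed to cholesterol. When sterols are low, SCAP carries the SREBP proteins from the endoplasmic reticulum to the Golgi for cleavage, and the released factor turns on the synthesis genes, among them Insig1, whose product holds SCAP back. Neurons remove excess cholesterol by hydroxylating it with CYP46A1, and the resulting oxysterol is a ligand of the LXR receptors, which turn on exporters such as ABCA1. Loss of sterol synthesis has been described in striatal tissue of several Huntington's disease models.

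Per unit of transcript length, Cyp46a1 stood at the top of the 34 genes in the 24 untreated WT mice. The deposited per-length table has columns with equal sums and was read on a TPM scale. On it Cyp46a1 averaged 268 ± 18.6 (SD, n = 24), Srebf2 112 ± 7.37, Hmgcs1 103 ± 8.60 and Msmo1 76.4 ± 5.00. Nr1h3, which encodes LXR alpha, had the lowest level, 3.76 ± 0.594. Between these ends the order was fine-grained: of the 33 pairs of neighbours in the order, 20 differed by less than the larger of their SDs, among them Srebf1, Nr1h2, Scap, Fdps and Insig1.

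**Figure D1:**
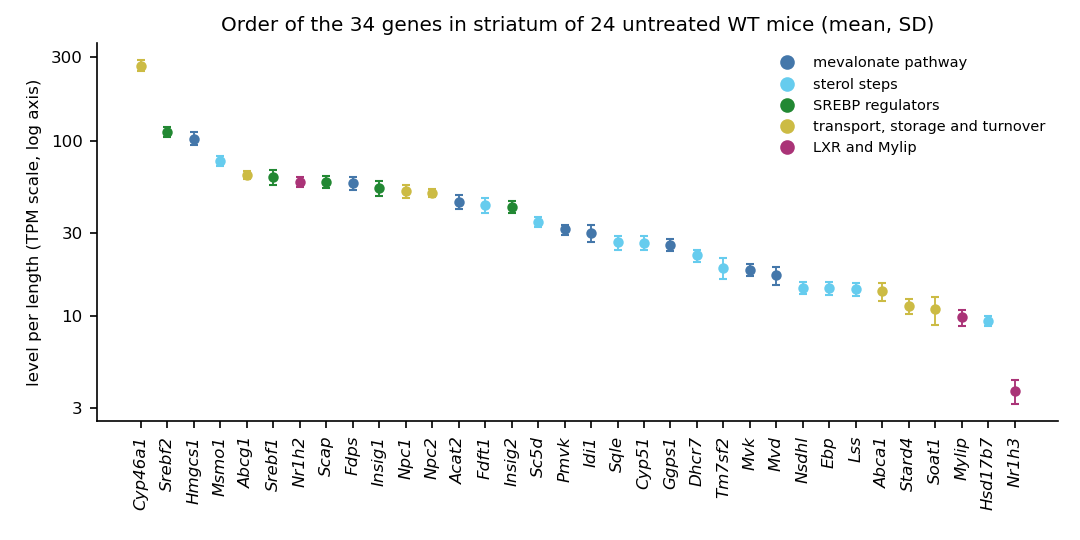
Level of each of the 34 genes per unit of transcript length (TPM scale, log axis) in 24 untreated WT mice, as mean with SD, coloured by role. Cyp46a1 leads at 268 and Nr1h3 is lowest at 3.76.

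Acat2, Msmo1, Srebf2, Insig1 and Cyp46a1 are the genes that the results below turn on, and their promoters are shown here with that of Hmgcs1, to set the motifs known for SREBP and its partner factors beside the results. Sequences are from RefSeq (GRCm38.p6), 250 bases before to 50 after the gene's start, in the 5′ to 3′ direction of the gene. Capitals mark matches on either strand to the SREBP site TCACNCCAC, the E-box CACGTG, the NF-Y box CCAAT and the Sp1 box GGGCGG, so that some stand as the reverse complement. No match of these motifs overlapped another in the windows shown. The windows lie at chr5:28071162-28071461 (plus strand) for Insig1, chr15:82147019-82147318 (plus strand) for Srebf2, chr8:64733529-64733828 (minus strand) for Msmo1, chr17:12960676-12960975 (minus strand) for Acat2, chr12:108334066-108334365 (plus strand) for Cyp46a1 and chr13:119690101-119690400 (plus strand) for Hmgcs1.
Insig1: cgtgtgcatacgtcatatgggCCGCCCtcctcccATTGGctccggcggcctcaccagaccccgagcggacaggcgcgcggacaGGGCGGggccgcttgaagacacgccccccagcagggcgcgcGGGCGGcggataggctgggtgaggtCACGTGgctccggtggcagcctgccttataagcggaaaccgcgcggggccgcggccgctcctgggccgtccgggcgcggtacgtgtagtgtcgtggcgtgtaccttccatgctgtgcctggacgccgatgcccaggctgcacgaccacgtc
Srebf2: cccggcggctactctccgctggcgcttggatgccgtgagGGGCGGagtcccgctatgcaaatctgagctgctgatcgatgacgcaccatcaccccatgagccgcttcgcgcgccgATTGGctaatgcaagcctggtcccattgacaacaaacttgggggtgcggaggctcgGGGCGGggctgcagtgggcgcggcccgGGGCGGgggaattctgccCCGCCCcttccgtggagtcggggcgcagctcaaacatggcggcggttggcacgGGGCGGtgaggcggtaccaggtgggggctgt
Msmo1: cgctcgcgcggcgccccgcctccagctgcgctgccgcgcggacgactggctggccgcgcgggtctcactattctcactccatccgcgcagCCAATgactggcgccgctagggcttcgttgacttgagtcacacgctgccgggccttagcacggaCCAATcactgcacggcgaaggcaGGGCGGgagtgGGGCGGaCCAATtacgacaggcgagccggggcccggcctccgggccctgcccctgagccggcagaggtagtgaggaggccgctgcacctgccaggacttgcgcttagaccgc
Acat2: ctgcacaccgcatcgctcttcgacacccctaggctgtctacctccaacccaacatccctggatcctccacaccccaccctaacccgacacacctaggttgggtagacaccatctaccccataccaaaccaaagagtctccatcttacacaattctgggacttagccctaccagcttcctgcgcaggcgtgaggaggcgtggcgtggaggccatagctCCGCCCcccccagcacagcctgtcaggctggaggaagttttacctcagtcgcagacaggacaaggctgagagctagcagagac
Cyp46a1: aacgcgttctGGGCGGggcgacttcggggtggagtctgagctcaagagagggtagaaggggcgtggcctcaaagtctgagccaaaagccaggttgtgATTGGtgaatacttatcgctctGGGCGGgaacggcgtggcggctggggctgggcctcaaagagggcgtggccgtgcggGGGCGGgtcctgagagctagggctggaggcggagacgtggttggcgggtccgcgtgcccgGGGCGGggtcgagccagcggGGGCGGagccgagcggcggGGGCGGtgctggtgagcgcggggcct
Hmgcs1: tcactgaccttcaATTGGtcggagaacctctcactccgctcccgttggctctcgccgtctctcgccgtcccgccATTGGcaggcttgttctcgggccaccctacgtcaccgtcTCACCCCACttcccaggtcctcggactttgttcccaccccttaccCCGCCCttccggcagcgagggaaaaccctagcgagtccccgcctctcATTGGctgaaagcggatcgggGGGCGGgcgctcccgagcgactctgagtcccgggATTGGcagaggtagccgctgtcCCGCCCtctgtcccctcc
The SREBP site was matched in Hmgcs1, 137 bases before the start, and in no other promoter window of the 28 genes that matched a RefSeq entry (37 windows). Among all 32851 promoter windows, 1.24% held it. The NF-Y box was in 64.9% of the windows of these genes and 37.4% of all windows, the Sp1 box in 75.7% and 35.7%, and the E-box in 18.9% and 7.15%. The LXR element, a direct repeat of the receptor's letters searched without mismatch, was in 0 of the 37 windows and in 0.0152% of all windows. Insig1 had an E-box at -101, and Msmo1 had 3 NF-Y boxes and 2 Sp1 boxes. Acat2 had a single Sp1 box and no NF-Y box, and Cyp46a1 had 6 Sp1 boxes and 1 NF-Y box. These are matches of letters in a short window and show no binding.

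The first comparison asked how the knock-in allele alone related to these genes, in untreated zQ175 against untreated WT mice of each strategy. Some genes of each role were lower in zQ175 striatum and others were higher, and the median fold change of the list was near 0. By the mean log2 fold change over the 3 strategies, the largest decreases were in Insig1 (24.2% to 29.4% relative to WT) and Cyp46a1 (20.1% to 26.2%), followed by Msmo1 (20.3% to 23.6%), and the largest increases were in Mvk, Tm7sf2 and Abca1. In 2[4]6, 5 of the 34 genes were called higher and 6 lower, which is 32.4% of the list against 32.6% of all 15716 genes tested (15.3% higher and 17.2% lower). In 6[4]10, 6 were higher and 9 lower (44.1%, against 36.1% of all genes, 19.2% higher and 17% lower), and in 2+6[8]10, 5 were higher and 9 lower (41.2%, against 35.4% of all genes, 17.1% higher and 18.3% lower). The median log2 fold change of the 34 genes was -0.04, -0.0026 and 0.05 in these strategies in the same order, and that of all genes tested was 0.0035, 0.0107 and 0.0031. In 2[4]6 the libraries of the genotypes differed in their mean slope of gene level on GC content. It was 0.32 ± 0.59 (log2 CPM per unit of GC fraction, SD) in untreated WT and -0.64 ± 0.70 in untreated zQ175. With NTC it was 0.16 ± 0.99 in WT and -0.28 ± 0.96 in zQ175, and with HTT-10150 0.30 ± 0.81 and -0.46 ± 0.95. In 2+6[8]10 the GC slope with NTC was -0.30 ± 0.42 in WT and -0.81 ± 0.23 in zQ175. There it was -0.52 ± 0.28 and -0.70 ± 0.24 in untreated mice, and -0.42 ± 0.33 and -0.49 ± 0.36 with HTT-10150. In untreated 6[4]10 mice the mean slope on transcript length was 0.0031 ± 0.0118 in WT. In zQ175 it was -0.0271 ± 0.0395, with male replicate 2 at -0.122. Calls with these slopes as covariates are given further below.

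Insig1, the sterol-sensing anchor that retains SCAP, had 47.0, 50.2 and 55.8 CPM (lowest, median and highest of 8) in untreated zQ175 and 59.7, 64.2 and 78.04 CPM in untreated WT of 2[4]6. The 6[4]10 mice had 37.0, 44.2 and 62.3 CPM in zQ175 and 53.8, 67.3 and 77.1 CPM in WT, and in 2+6[8]10 it had 42.4, 50.5 and 55.9 CPM in zQ175 and 60.1, 65.4 and 75.8 CPM in WT. Every zQ175 mouse was below every WT mouse in 2[4]6 and 2+6[8]10, and the groups overlapped in 6[4]10. The log2 fold change was -0.40 ± 0.06 (SE, adjusted p = 3.80e-07) in 2[4]6, -0.50 ± 0.09 (adjusted p = 6.93e-06) in 6[4]10 and -0.42 ± 0.06 (adjusted p = 2.74e-07) in 2+6[8]10.

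Srebf2 encodes the SREBP that drives most cholesterol synthesis genes. It had 191, 212 and 245.5 CPM in zQ175 and 243.96, 272 and 293 CPM in WT of 2[4]6 (lowest, median and highest). In 6[4]10 the values were 220.2, 227 and 239.8 CPM in zQ175 and 252, 258 and 271 CPM in WT, with no overlap, and in 2+6[8]10 they were 201, 217.5 and 227 CPM in zQ175 and 218, 239.6 and 254 CPM in WT. The groups overlapped at their edges in 2[4]6 and 2+6[8]10. The log2 fold change was -0.32 ± 0.05 (adjusted p = 6.35e-06), -0.18 ± 0.03 (adjusted p = 1.74e-06) and -0.16 ± 0.03 (adjusted p = 6.98e-05) in 2[4]6, 6[4]10 and 2+6[8]10. The other regulators had smaller fold changes. Srebf1, the SREBP linked mainly to fatty acid synthesis, rose in 2+6[8]10 by 0.16 ± 0.05 (log2, adjusted p = 0.00843), Insig2 rose in 6[4]10 by 0.12 ± 0.04 (adjusted p = 0.0192), and Scap was not called in any untreated comparison. The call of Srebf1 was lost without replicate 3 (adjusted p = 0.0842), and that of Insig2 without replicate 2, 3 or 4, with length and GC slopes as covariates, or with only the groups compared (adjusted p up to 0.101).

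Among the sterol enzymes Msmo1, the methylsterol monooxygenase that starts removal of the methyl groups at carbon C-4, was the gene with the largest change. Its levels were 52.6, 59.3 and 71.9 CPM in zQ175 and 67.9, 75.4 and 82.99 CPM in WT of 2[4]6. In 6[4]10 they were 43.3, 54.2 and 59.7 CPM in zQ175 and 63.1, 69.3 and 76.7 CPM in WT, and in 2+6[8]10 they were 50.2, 54.4 and 59.4 CPM in zQ175 and 66.96, 67.997 and 77.85 CPM in WT. The groups were separate in both strategies collected at 10 months and overlapped in 2[4]6. Its log2 fold change was -0.33 ± 0.06 (adjusted p = 2.82e-05), -0.37 ± 0.06 (adjusted p = 1.72e-06) and -0.39 ± 0.05 (adjusted p = 1.49e-09).

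The other sterol enzymes split by direction. Dhcr7, which makes the last reduction to cholesterol, fell by 0.16 in 6[4]10 (log2, adjusted p = 0.0206) and by 0.21 in 2+6[8]10 (adjusted p = 0.00101), and was -0.12 in 2[4]6 (adjusted p = 0.111). Its levels in 6[4]10 were 19.4, 21.9 and 24.6 CPM in zQ175 and 23.3, 24.8 and 26.9 CPM in WT, and in 2+6[8]10 they were 19.8, 21.2 and 23.6 CPM in zQ175 and 22.6, 24.7 and 27.1 CPM in WT, with overlap in both. Cyp51, lanosterol demethylase, fell in 6[4]10 by 0.12 (adjusted p = 0.0425). Tm7sf2, a sterol C-14 reductase, rose in 2[4]6, with 10.7, 12.04 and 12.62 CPM in zQ175 and 8.31, 9.48 and 11.5 CPM in WT, ranges that overlapped. In 6[4]10 it had 11.13, 12.52 and 14.995 CPM in zQ175 and 9.59, 11.21 and 12.32 CPM in WT, which overlapped as well. Its log2 fold change was 0.30 ± 0.07 (adjusted p = 0.000247) in 2[4]6, 0.19 ± 0.07 (adjusted p = 0.0386) in 6[4]10 and 0.06 ± 0.07 (adjusted p = 0.543) in 2+6[8]10. Of the exon bases of Tm7sf2, 12.1% overlap Vps51 on the same strand, so that part of its reads is uncertain, and its call in 6[4]10 was lost in 7 alternatives, DESeq2 and leaving out replicate 1, 2 or 4 among them (adjusted p up to 0.184). Hsd17b7, a sterone reductase, rose in 2+6[8]10 by 0.14 ± 0.05 (log2, adjusted p = 0.0125). Fdft1, Sqle, Lss, Nsdhl, Ebp and Sc5d were called in no untreated comparison, with log2 fold changes between -0.09 and 0.10. Calls of Dhcr7 were lost without replicate 1 or 3 in 6[4]10 (adjusted p up to 0.0843) and without replicate 2 in 2+6[8]10 (0.0656), that of Cyp51 without replicate 1, 2 or 3 or without the filter on low counts (up to 0.410), and that of Hsd17b7 without replicate 2 or 3 (up to 0.153).

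In the mevalonate pathway Acat2, which joins acetyl-CoA units in the cytosol, was lower in each strategy. It had 34.6, 36.4 and 38.8 CPM in zQ175 and 42.4, 45.5 and 55.9 CPM in WT of 2[4]6, ranges that did not meet. The 6[4]10 mice had 30.5, 36.5 and 40.4 CPM in zQ175 and 36.7, 44.0 and 49.7 CPM in WT, and in 2+6[8]10 it had 34.7, 36.7 and 41.5 CPM in zQ175 and 39.8, 41.7 and 51.1 CPM in WT, and both pairs overlapped. The log2 fold change was -0.37 ± 0.05 (adjusted p = 7.39e-09), -0.29 ± 0.06 (adjusted p = 7.30e-05) and -0.24 ± 0.05 (adjusted p = 0.000516).

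Idi1, the isomerase of isopentenyl diphosphate, fell by 0.17 in 6[4]10 (log2, adjusted p = 0.011) and by 0.26 in 2+6[8]10 (adjusted p = 0.000654). In 2+6[8]10 its values were 33.4, 37.2 and 40.5 CPM in zQ175 and 39.7, 43.6 and 51.03 CPM in WT, so that the ranges barely overlapped, and in 6[4]10 they were 29.23, 32.2 and 36.7 CPM in zQ175 and 33.5, 35.8 and 40.9 CPM in WT, with more overlap. Hmgcs1, the cytosolic HMG-CoA synthase, had 131, 143 and 147 CPM in zQ175 and 144.8, 155.75 and 174.07 CPM in WT there and fell by 0.17 ± 0.05 (log2, adjusted p = 0.00496). In 2[4]6 and 6[4]10 its log2 fold changes were -0.13 (adjusted p = 0.0615) and -0.12 (adjusted p = 0.0812). The call of Idi1 in 6[4]10 was lost without replicate 1, with a log2 fold change of -0.11 (adjusted p = 0.162), and that of Hmgcs1 without replicate 4 (adjusted p = 0.0594).

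Mevalonate kinase, Mvk, moved the other way, with 12.035, 15.2 and 19.5 CPM in zQ175 and 11.4, 12.5 and 14.6 CPM in WT of 6[4]10. The ranges overlapped, and the log2 fold change was 0.29 ± 0.07 (adjusted p = 0.00122). The 2[4]6 mice had 13.2, 16.6 and 18.5 CPM in zQ175 and 12.3, 14.1 and 15.2 CPM in WT, also overlapping, where it rose by 0.20 ± 0.08 (adjusted p = 0.0489), and in 2+6[8]10 it was 0.13 ± 0.06 (adjusted p = 0.109). Pmvk, the next kinase of the pathway, rose by 0.19 (adjusted p = 0.00838) in 2[4]6 and by 0.17 (adjusted p = 0.0121) in 6[4]10. It had 16.7, 18.95 and 22.4 CPM in zQ175 and 14.9, 17.25 and 18.01 CPM in WT of 2[4]6, and 16.6, 18.5 and 24.3 CPM in zQ175 and 15.8, 17.4 and 19.5 CPM in WT of 6[4]10, ranges that overlapped. Fdps, farnesyl diphosphate synthase, rose by 0.19 (adjusted p = 0.00925) in 6[4]10 and by 0.14 (adjusted p = 0.0313) in 2+6[8]10, and 26.7% of its exon bases overlap Gm43738 on the same strand. Its levels were 30.7, 34.3 and 47.4 CPM in zQ175 and 29.8, 31.7 and 34.05 CPM in WT of 6[4]10, and 31.5, 34.3 and 39.7 CPM in zQ175 and 27.5, 31.98 and 35.1 CPM in WT of 2+6[8]10, again overlapping. Mvd and Ggps1 were not called. The call of Mvk was lost in 2[4]6 without replicate 2, 3 or 4 or without the sex term (adjusted p up to 0.169), and in 6[4]10 without replicate 2 (0.0556). That of Pmvk was lost in 2[4]6 without replicate 3 (0.124) and in 6[4]10 without replicate 2 or 4, with slopes as covariates or with only the groups compared (up to 0.167). That of Fdps was lost in 6[4]10 without replicate 2 or 4 or with slopes as covariates (up to 0.375), and in 2+6[8]10 without replicate 1, 2 or 3 (up to 0.180).

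Cyp46a1 encodes cholesterol 24-hydroxylase, the neuronal enzyme of cholesterol turnover. It had 185, 202 and 211 CPM in zQ175 and 244.1, 265 and 306 CPM in WT of 2[4]6. The 6[4]10 mice had 195, 205 and 239 CPM in zQ175 and 227, 264 and 285 CPM in WT, and in 2+6[8]10 it had 167, 186 and 204 CPM in zQ175 and 223, 250.67 and 259 CPM in WT. The groups were separate in 2[4]6 and 2+6[8]10 and overlapped in 6[4]10. Its log2 fold change was -0.44 ± 0.05 (adjusted p = 3.55e-09), -0.32 ± 0.05 (adjusted p = 1.11e-06) and -0.41 ± 0.04 (adjusted p = 9.73e-13).

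The exporters differed in direction. Abca1, which loads cholesterol onto apolipoproteins, had 66.7, 69.7 and 74.4 CPM in zQ175 and 52.9, 60.6 and 70.2 CPM in WT of 2[4]6, and rose by 0.21 ± 0.05 (log2, adjusted p = 0.000896). In 2+6[8]10 it had 72.4, 83.9 and 91.6 CPM in zQ175 and 60.8, 67.6 and 75.5 CPM in WT and rose by 0.30 ± 0.05 (adjusted p = 4.33e-06). In 6[4]10 it had 53.0, 65.7 and 73.4 CPM in zQ175 and 53.4, 65.96 and 71.5 CPM in WT, almost the same range, with a log2 fold change of 0.0045 ± 0.07 (adjusted p = 0.969). Abcg1, a second sterol exporter, fell by 0.10 (adjusted p = 0.021) in 6[4]10, where the groups were separate, and by 0.11 (adjusted p = 0.00459) in 2+6[8]10. The 6[4]10 mice had 90.5, 99.9 and 103 CPM in zQ175 and 104, 105 and 111 CPM in WT, and the 2+6[8]10 mice had 91.5, 96.9 and 106 CPM in zQ175 and 98.8, 105 and 116 CPM in WT, which overlapped. Soat1, which esterifies cholesterol for storage, rose in 2[4]6 by 0.21 ± 0.07 (adjusted p = 0.0136). Stard4, a soluble sterol carrier, and Npc1 and Npc2, which release cholesterol from lysosomes, were not called. The calls of Abca1 held in each alternative run, and that of Soat1 was lost without replicate 1, 3 or 4 (adjusted p up to 0.116). Those of Abcg1 were lost in 6[4]10 without replicate 2, 3 or 4 or with length and GC slopes as covariates (up to 0.197), and in 2+6[8]10 without replicate 2 (0.0929).

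In the LXR group Nr1h2, which encodes LXR beta, rose by 0.14 ± 0.04 (log2, adjusted p = 0.00313) in 6[4]10 and by 0.11 ± 0.03 (adjusted p = 0.0126) in 2+6[8]10. It had 49.96, 54.2 and 60.5 CPM in zQ175 and 48.2, 49.8 and 51.9 CPM in WT of 6[4]10, and 45.7, 50.5 and 53.6 CPM in zQ175 and 43.2, 46.8 and 47.999 CPM in WT of 2+6[8]10, with overlap in both. Mylip, the ubiquitin ligase that degrades lipoprotein receptors, had 11.1, 12.4 and 14.5 CPM in zQ175 and 13.4, 14.2 and 15.4 CPM in WT of 2[4]6. These ranges overlapped, and it fell by 0.19 ± 0.06 (adjusted p = 0.00637). Nr1h3 was not called without treatment, with log2 fold changes between 0.13 and 0.19. The call of Nr1h2 in 2+6[8]10 was lost without replicate 2 or 3 (adjusted p up to 0.121) and that of Mylip without replicate 3 or 4 (up to 0.0749).

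Across the 3 strategies, 3 of the 34 genes had groups that did not overlap in 2[4]6 (8.79% of all genes), 3 in 6[4]10 (8.83%) and 3 in 2+6[8]10 (9.22%). The genotype effect itself was compared between strategies. By edgeR without a block, no gene of the list was called in the 3 contrasts, where 0.835%, 0.0675% and 0.0123% of all 16295 genes were. At an unadjusted p under 0.05 there were 6, 6 and 1 of the 34 genes, and DESeq2 called 0 in each. The smallest adjusted p was that of Abca1, whose effect was lower in 6[4]10 than in 2[4]6 by 0.21 ± 0.08 (log2, adjusted p = 0.177). Its effect in 2+6[8]10 exceeded that in 6[4]10 by 0.31 ± 0.08, which had the smallest unadjusted p of the list (adjusted p = 0.564). With the replicate number as a block, Srebf2 was called between 2+6[8]10 and 2[4]6, as given further below.

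**Figure D2:**
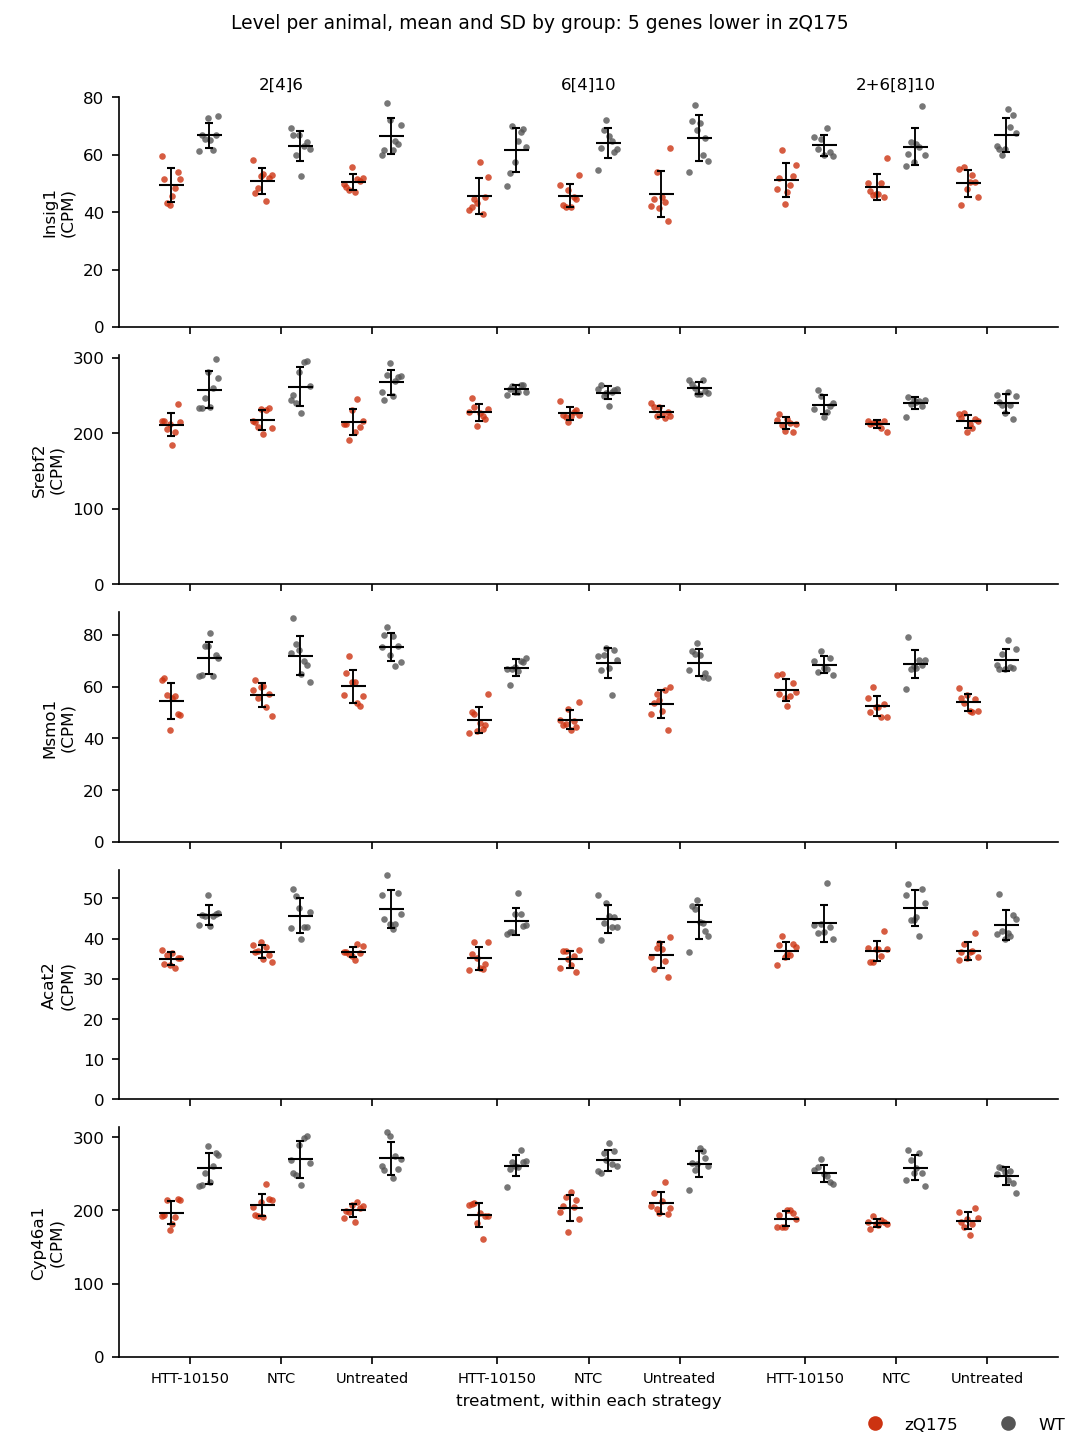
Level of Insig1, Srebf2, Msmo1, Acat2 and Cyp46a1 in each of 143 mice (points, TMM-scaled CPM, axes from 0), with the mean and SD of each group, for zQ175 and WT by treatment and strategy. In untreated 2[4]6 mice Cyp46a1 lay at 185 to 211 CPM in zQ175 and 244.1 to 306 CPM in WT.

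The same question was put to mice given NTC and to mice given HTT-10150, which are other animals, so that each strategy gave 3 separate estimates of the genotype effect within 1 fit. Insig1, Srebf2, Msmo1, Acat2 and Cyp46a1 were called lower in zQ175 in 9 of 9 comparisons, and no other gene of the list was. Of the 15431 genes tested in all 9, 7.53% were called lower in each and 5.06% higher in each, and 0 of the 34 genes were higher in each. No gene of the list was called in both directions. The other 4 genes called lower in at least 5 comparisons were Abcg1 (7), Idi1 (6), Hmgcs1 (5) and Dhcr7 (5). Those called higher in at least 5 were Abca1 (7), Mvk (6), Tm7sf2 (6) and Nr1h2 (5). Ggps1, Sqle, Lss, Nsdhl, Ebp and Sc5d were called in none of the 9, which is 17.6% of the list against 26.5% of all genes.

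With NTC, 4 genes were higher and 9 lower in 2[4]6 (38.2% of the list, against 34.4% of all genes, 15.9% higher and 18.5% lower), 3 were higher and 11 lower in 6[4]10 (41.2%, against 32.8%, 16.8% higher and 15.9% lower), and 4 were higher and 8 lower in 2+6[8]10 (35.3%, against 42.1%, 20.7% higher and 21.4% lower). With HTT-10150, 2 were higher and 12 lower in 2[4]6 (41.2%, against 33.5% of all genes, 16.1% higher and 17.4% lower), 6 were higher and 11 lower in 6[4]10 (50% of the list, against 34.7%, 17.8% higher and 16.9% lower), and 6 were higher and 7 lower in 2+6[8]10 (38.2%, against 36.2%, 17.5% higher and 18.7% lower). The decrease of Msmo1 was largest with NTC in 6[4]10, at -0.55 ± 0.06 (log2, adjusted p = 1.91e-10), and smallest with HTT-10150 in 2+6[8]10, at -0.23 ± 0.05 (adjusted p = 0.000105). Insig1 ranged from -0.50 to -0.29, Cyp46a1 from -0.50 to -0.32, Acat2 from -0.39 to -0.24 and Srebf2 from -0.32 to -0.16. Cyp46a1 had groups that did not overlap in 7 of the 9 comparisons, Msmo1 and Acat2 in 5, Insig1 in 4, Srebf2 in 3 and Abcg1 in 2. With NTC, groups did not overlap for 1, 4 and 2 of the 34 genes in 2[4]6, 6[4]10 and 2+6[8]10. Of all genes, 8.08%, 8.16% and 12.3% had such groups. With HTT-10150 it was 4, 4 and 2 of the 34, against 6.34%, 9.33% and 11% of all genes. Further genes had calls in mice given a small interfering RNA and none in untreated mice. Mvd, which decarboxylates mevalonate diphosphate, fell in 6[4]10 with NTC (-0.23, adjusted p = 0.00895) and with HTT-10150 (-0.23, adjusted p = 0.00816). Nr1h3 rose in 6[4]10, by 0.28 with NTC (adjusted p = 0.0203) and by 0.43 with HTT-10150 (adjusted p = 0.000455). Stard4 was called lower in 2 of the 9 comparisons, at -0.30 with NTC in 6[4]10 (adjusted p = 0.000702). Fdft1, Scap and Npc2 were each called lower in 1 of the 9, and Npc1 was called higher in 1. How far the calls of Stard4, Fdft1, Scap, Npc1 and Npc2 held in alternative runs is not given here. Calls were lost for Mvd without replicate 1 with NTC (adjusted p = 0.0609) and without replicate 3 with HTT-10150 (0.0780), and for Nr1h3 with NTC without replicate 1, 2 or 3 (up to 0.149). A difference of these effects from those in untreated mice was not tested.

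**Figure D3:**
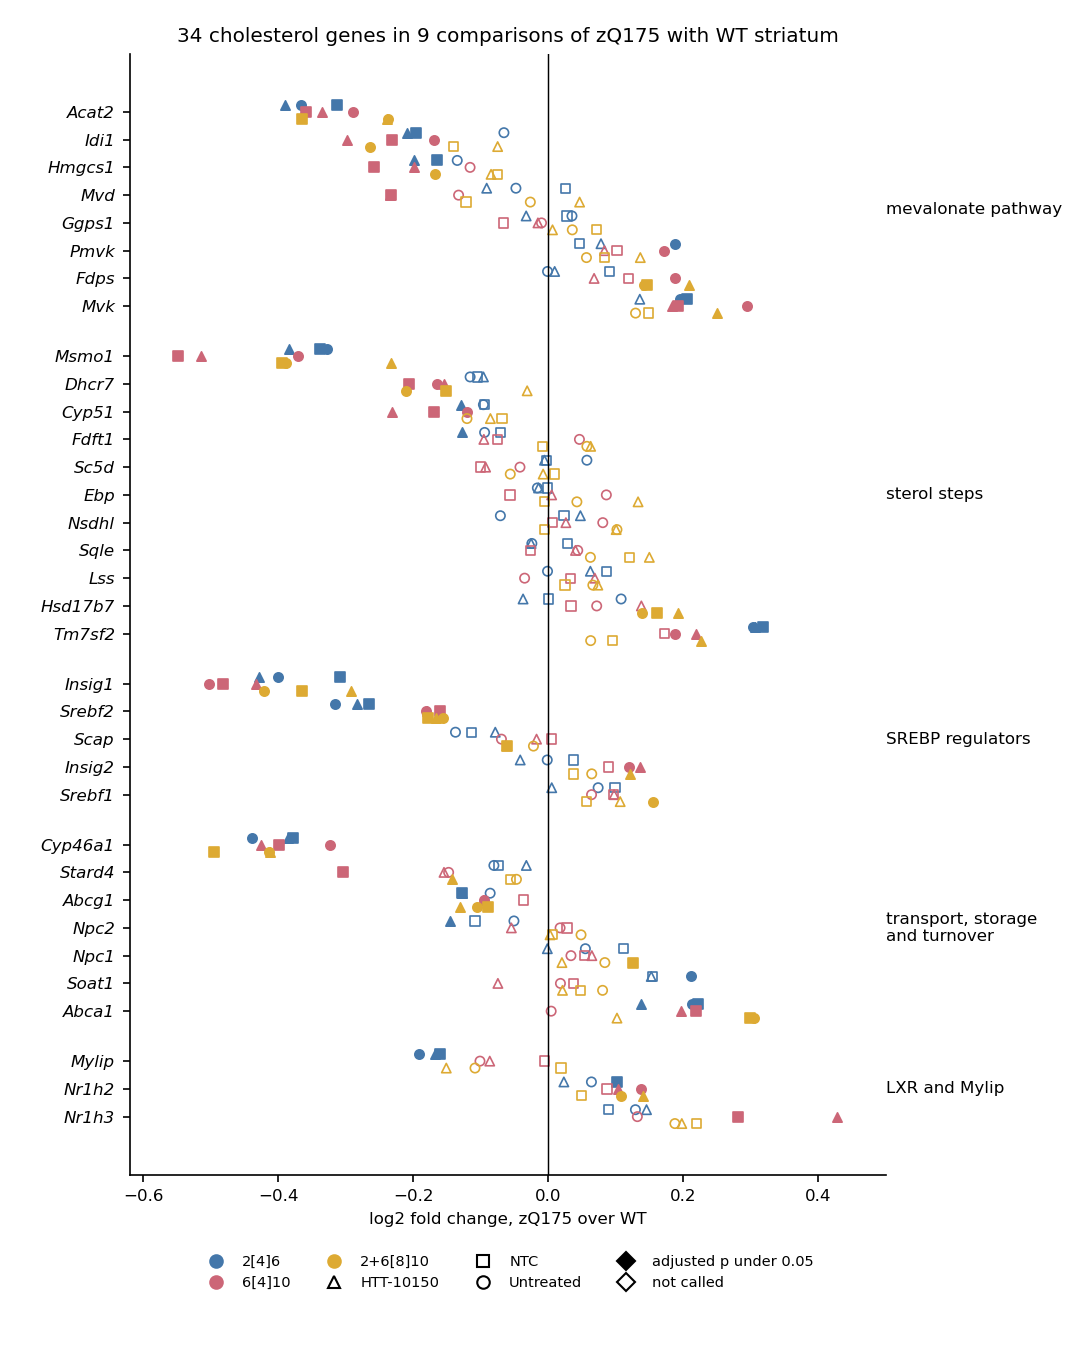
Log2 fold change of zQ175 over WT for each of the 34 genes, grouped by role, in 9 comparisons of separate animals. Colour gives the strategy, shape the treatment, and filled symbols have an adjusted p under 0.05. Acat2, Msmo1, Insig1, Srebf2 and Cyp46a1 lie left of 0 with filled symbols in 9 of 9 comparisons, and Abca1 lies right of 0 with filled symbols in 7.

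**Figure D4:**
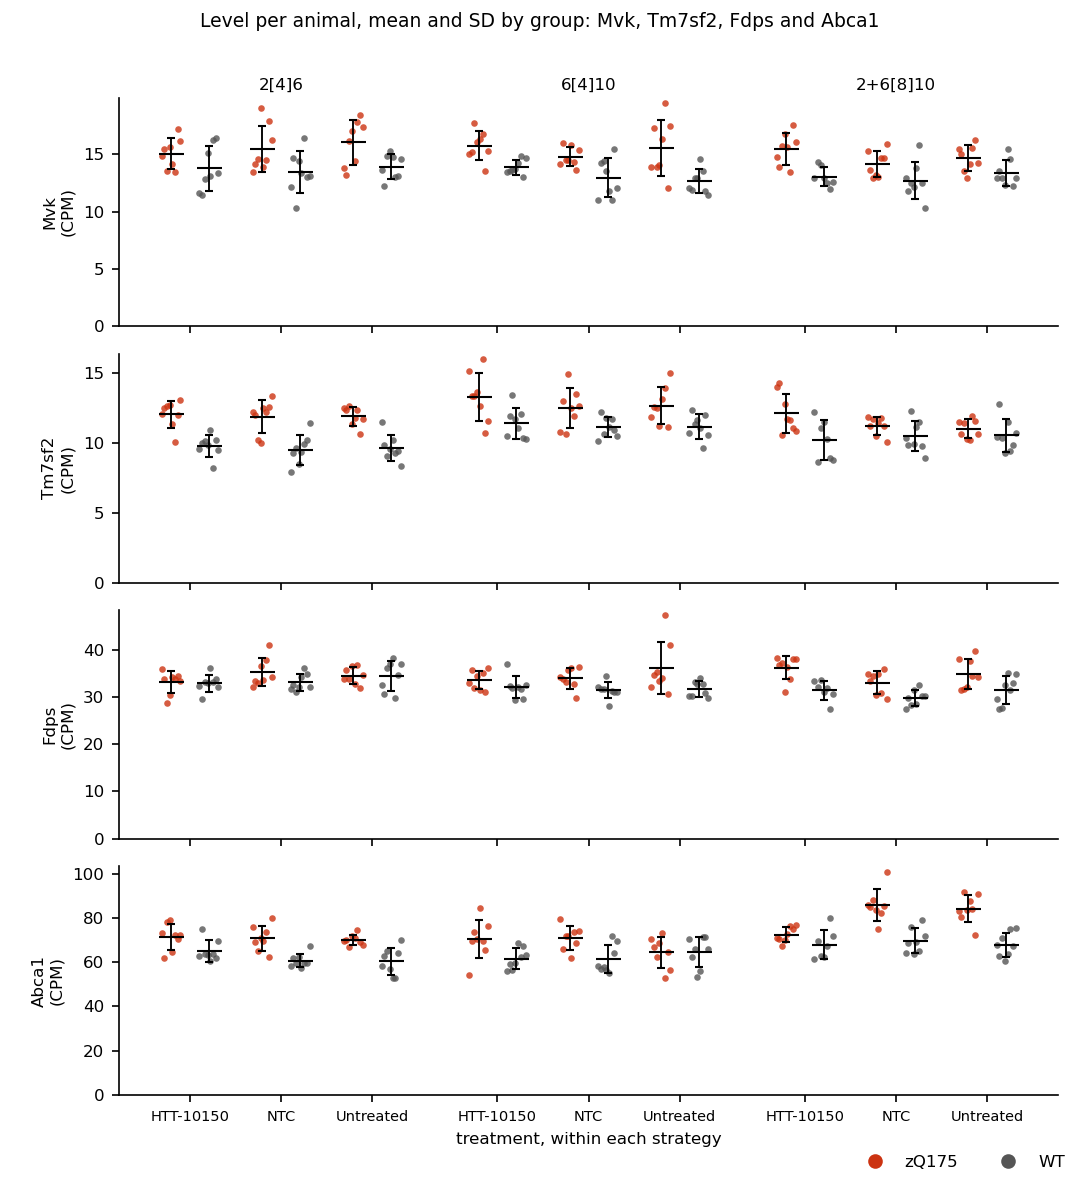
Level of Mvk, Tm7sf2, Fdps and Abca1 in each of 143 mice (points, TMM-scaled CPM, axes from 0), with the mean and SD of each group. The zQ175 and WT ranges of these 4 genes overlap in each of the 9 comparisons, and Abca1 in 2+6[8]10 is lower in zQ175 mice given HTT-10150 (67.3 to 77.0 CPM) than in those given NTC (75.1 to 101 CPM).

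Markers of several cell types moved with genotype in the same tissue. Of the 10 medium spiny neuron markers, 9 were called lower in zQ175 in each of the 9 comparisons, and their mean log2 CPM was 8.54 to 8.74 in the zQ175 groups and 9.38 to 9.58 in the WT groups. Of 12 oligodendrocyte markers 6 to 7 were lower and 0 to 1 higher (group means 8.06 to 8.20 in zQ175 and 8.27 to 8.40 in WT), of 10 astrocyte markers 5 to 9, with 0 to 2 higher (6.94 to 7.03 in zQ175 and 7.10 to 7.203 in WT), of 6 endothelial markers 3 to 6 (4.45 to 4.57 in zQ175 and 4.65 to 4.88 in WT), and of 6 microglial markers 0 to 5 (5.145 to 5.26 in zQ175 and 5.25 to 5.36 in WT). Of 7 precursor markers of the oligodendrocyte lineage, 1 to 3 were higher and 0 to 1 lower (4.58 to 4.73 in zQ175 and 4.40 to 4.61 in WT). No marker was at 0 in any library. In bulk tissue, fewer cells of a type and less RNA per cell cannot be told apart, and the part of these markers in the changes of the cholesterol genes was not tested. Of 4 choroid plexus markers, 0 to 1 were lower and 0 to 2 higher (1.58 to 3.28 in zQ175 and 1.49 to 3.45 in WT). Of 5 cortical projection neuron markers, 1 was lower (4.04 to 4.81 in zQ175 and 3.94 to 4.95 in WT), and with that score as a covariate the 5 genes lower in all 9 comparisons kept their calls. The group means of that score overlapped between the genotypes, so this run could remove little of a genotype effect. The scores that separated the genotypes were not used as covariates.

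HTT-10150 was then compared with NTC in each genotype and strategy. In zQ175 mice dosed at 2 and 6 months, Msmo1 rose and Abca1 fell, and 3.16% of all genes were called (1.1% higher and 2.06% lower). Msmo1 had 52.6, 57.5 and 64.9 CPM with HTT-10150 and 48.2, 52.0 and 59.9 CPM with NTC, overlapping ranges, and a log2 fold change of 0.17 ± 0.05 (adjusted p = 0.0346). Abca1 had 67.3, 71.8 and 77.0 CPM with HTT-10150 and 75.1, 85.05 and 101 CPM with NTC, ranges that overlapped at the edge, and a log2 fold change of -0.24 ± 0.05 (adjusted p = 0.00445). The untreated WT mice of that strategy lay at 66.96 to 77.85 CPM for Msmo1 and 60.8 to 75.5 CPM for Abca1.

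These calls have limits. The mean slope of gene level on transcript length in a library was -0.0095 ± 0.0141 (log2 CPM per log2 length, SD) in these zQ175 mice given HTT-10150 and 0.0132 ± 0.0126 in those given NTC, and the mean slope on GC content (log2 CPM per unit of GC fraction) was -0.49 ± 0.36 with HTT-10150 and -0.81 ± 0.23 with NTC. With length and GC slopes as covariates, the fold change of Abca1 was -0.12 (adjusted p = 0.463) and that of Msmo1 0.15 (adjusted p = 0.386). Without any of the replicate numbers 1 to 4 in turn, the adjusted p of Msmo1 was between 0.0602 and 0.138, and without the libraries that stand apart it was 0.0738. In WT mice of the same strategy, the log2 fold change of HTT-10150 over NTC was 0.01 ± 0.05 for Msmo1 and -0.05 ± 0.05 for Abca1. The difference of the effect between genotypes was 0.16 ± 0.07 (adjusted p = 0.290) for Msmo1 and -0.20 ± 0.07 (adjusted p = 0.229) for Abca1.

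No other gene of the list was called for HTT-10150 against NTC. In zQ175 mice of 2[4]6 and 6[4]10 and in WT mice of all 3 strategies, edgeR and DESeq2 each called 0 of the 34, and 1, 0, 0, 0 and 3 had an unadjusted p under 0.05. Of all genes, 0 were called in these zQ175 comparisons, and in WT 0.00636% in 2[4]6, each higher, 0 in 6[4]10 and 0.0129% in 2+6[8]10 (0.00645% higher and 0.00645% lower). The fold changes of the 34 were small in zQ175 mice of 2[4]6, where the largest was Mvd at -0.13 (log2), and of 6[4]10, where it was Hsd17b7 at 0.12. NTC against untreated mice, which share the NTC groups with the comparison above, also gave 0 calls in each genotype and strategy by either tool, with 0 to 3 genes at an unadjusted p under 0.05. Of all genes, 0.181% were called in WT of 2+6[8]10 and 0 in the other 5 comparisons of NTC. Set against each other, the HTT-10150 effects of zQ175 and WT gave 0 calls in the 3 strategies by either tool (0, 0 and 0.529% of all genes), with 0, 0 and 2 at an unadjusted p under 0.05.

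Female and male mice were compared over the 6 groups of each strategy. Fdft1, squalene synthase, was lower in females in each, by edgeR's quasi-likelihood test: -0.16 ± 0.03 (log2, adjusted p = 0.00015) in 2[4]6, -0.14 ± 0.03 (adjusted p = 0.000987) in 6[4]10 and -0.12 ± 0.03 (adjusted p = 0.00582) in 2+6[8]10. Of its exon bases 18.3% overlap Ctsb on the other strand, and whether the counting used strand is not given in the sources used here. In 2[4]6 there were 6 calls (17.6% of the list, against 16.6% of all genes): Pmvk (-0.12), Fdft1 and Srebf1 (-0.17) were lower in females, and Ggps1 (0.09), Msmo1 (0.11) and Stard4 (0.09) were higher. In 6[4]10 and 2+6[8]10 Fdft1 was the single call, against 2.21% and 2.1% of all genes. In 2[4]6 most female libraries had a negative GC slope and most male libraries a positive one, so that sex and this slope were partly confounded there. In 2[4]6 Fdft1 held in each alternative run, and the other 5 calls were lost with length and GC slopes as covariates and without replicate 2 or 3 (adjusted p up to 0.487). In 2+6[8]10 Fdft1 was lost without replicate 2 (adjusted p = 0.283). The difference of the untreated genotype effect between the sexes gave 0 calls by edgeR in each strategy, where no gene of any kind was called, with 0, 3 and 3 of the list at an unadjusted p under 0.05. DESeq2 called 0, 1 and 0, the 1 being Pmvk in 6[4]10, lower in females than in males by 0.41 (log2, adjusted p = 0.0467).

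Untreated mice collected at 10 months were compared with those collected at 6 months. Age, strategy and cohort cannot be told apart here, and both 10-month cohorts are set against the same 2[4]6 mice. In zQ175 of 6[4]10, 2 genes were higher and 7 lower than in 2[4]6 (26.5% of the list, against 16.5% of all genes). The lower ones were Hmgcs1, Idi1, Ggps1, Cyp51, Msmo1, Sc5d and Stard4, led by Idi1 at -0.29 ± 0.06 (log2, adjusted p = 0.000344) and Sc5d, a sterol desaturase, at -0.23 ± 0.04 (adjusted p = 2.91e-05). The higher ones were Srebf1 at 0.18 and Nr1h2 at 0.15. In WT of 6[4]10, 2 were higher (Tm7sf2 and Srebf1) and 4 lower (Hmgcs1, Idi1, Sqle and Sc5d), 17.6% against 16.6% of all genes, and Hmgcs1 was at -0.21 ± 0.05 (adjusted p = 0.00271).

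In 2+6[8]10 the picture was another. In zQ175 the single call was Abca1, higher by 0.27 ± 0.06 (log2, adjusted p = 0.0035), against 2.49% of all genes. In WT, 2 were higher (Abca1 and Soat1) and 5 lower (Fdft1, Nsdhl, Srebf2, Scap and Cyp46a1), 20.6% against 15% of all genes, with Soat1 at 0.28 ± 0.07 (adjusted p = 0.00262) and Srebf2 at -0.16 ± 0.04 (adjusted p = 0.00314). Apart from Idi1 and Sc5d in zQ175 of 6[4]10, each of these calls across ages was lost when at least 1 replicate number was left out, with adjusted p up to 0.475 over the alternatives run. Comparisons across ages or between strategies were not run with length and GC slopes or the cortical score as covariates. The mean GC slope of untreated zQ175 was -0.64 ± 0.70 (SD) in 2[4]6, 0.46 ± 0.43 in 6[4]10 and -0.70 ± 0.24 in 2+6[8]10. In untreated WT it was 0.32 ± 0.59, 0.69 ± 0.25 and -0.52 ± 0.28 in the same order. The part of these slopes in the calls of either genotype, those of Idi1 and Sc5d included, was not tested. Without 1 replicate number the counts ran from 2 to 13 in zQ175 of 6[4]10, 0 to 2 in zQ175 of 2+6[8]10, 1 to 4 in WT of 6[4]10 and 0 to 7 in WT of 2+6[8]10.

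Among mice of the same group and sex, the synthesis enzymes tended to vary together. Over 171 pairs of the 19 enzymes, the median Pearson r of their deviations from the group-by-sex mean (log2 CPM, 143 libraries) was 0.18, and 140 pairs were positive. Between these enzymes and every other gene the median was 0.00094. The median was 0.12 in 2[4]6 (48 libraries), 0.25 in 6[4]10 (48 libraries) and 0.19 in 2+6[8]10 (47 libraries), and 0.20 with the length and GC slopes of the libraries removed. The points share the libraries and their depth, and no p is given. Sqle and Hmgcs1 were closest to the other enzymes, each with a median r of 0.36, and Ggps1, which leads to isoprenoids outside the sterol route, was at -0.03.

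Outside the enzymes, Insig1 (0.27) and Stard4 (0.25) followed them by this median r, and Abcg1 (-0.19) and Soat1 (-0.16) were at the other end. The medians of Srebf2 (0.02), Scap (-0.03) and Cyp46a1 (0.02) were small, but their pairs with single enzymes had both signs. Srebf2 had 0.41 with Mvd and -0.24 with Ggps1. Scap had 0.39 with Mvk and -0.51 with Sc5d, and Cyp46a1 had 0.41 with Mvk and -0.40 with Ggps1. The regulators and the transport genes had a median r with the enzymes of -0.01 and -0.06, and with each other of 0.15. The length and GC slopes of the libraries were removed for pairs of enzymes alone, not for the values of this paragraph.

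**Figure D5:**
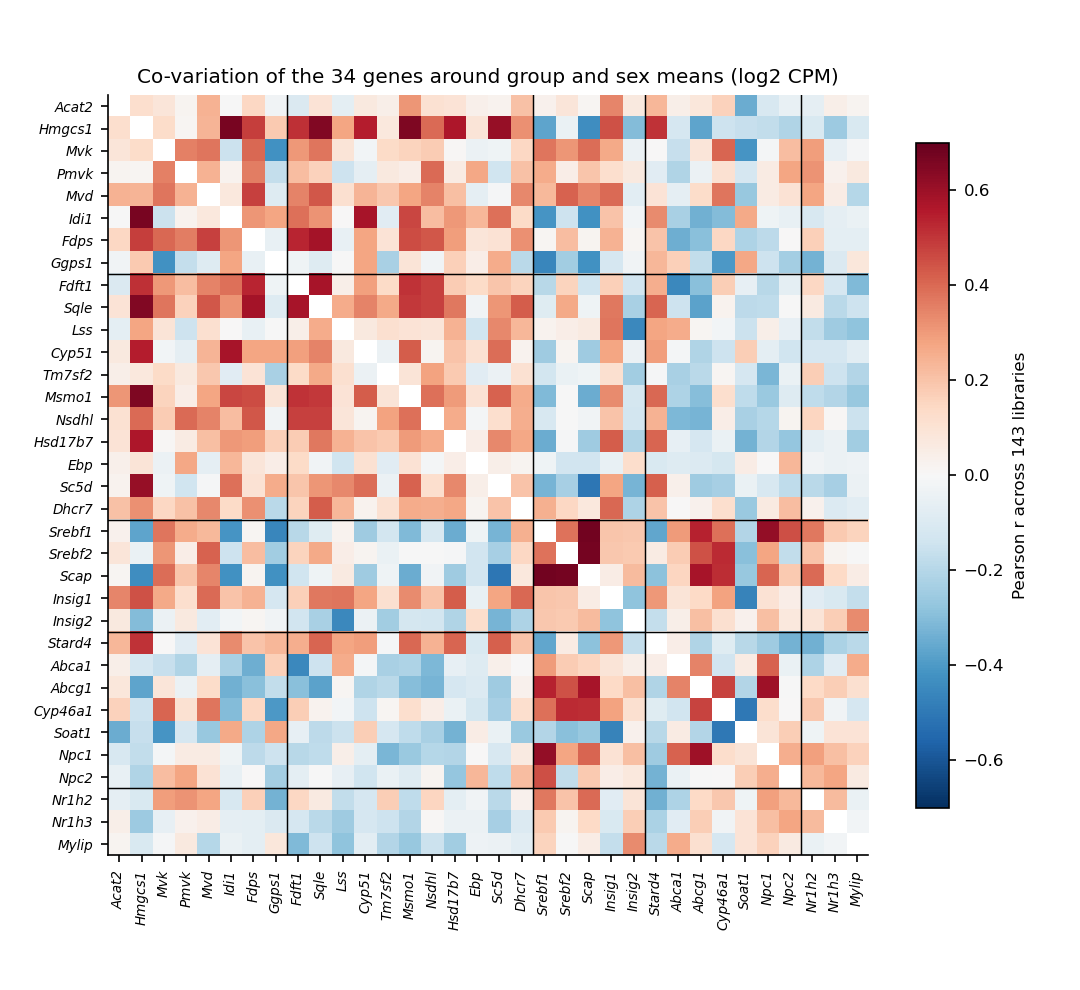
Pearson r between each pair of the 34 genes across 143 libraries, on log2 CPM deviations from the mean of the group and sex, with lines between the roles in the order mevalonate, sterol, regulators, transport and LXR. The block of synthesis enzymes at the upper left has a median r of 0.18, with Hmgcs1 and Sqle the most closely tied at a median of 0.36.

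A wider list of 36 other cholesterol genes, of which 34 were tested, also held genes called in both directions. Across the 9 genotype comparisons 5 to 11 of the 34 were lower in zQ175, where 15.9% to 21.4% of all genes were, and 5 to 9 were higher, where 15.3% to 20.7% of all genes were, and in untreated mice of 2[4]6 the median log2 fold change was -0.03. The 4 called genes with the largest mean change in untreated mice were Lcat, Cyp39a1, Mbtps1 and Stard5. Lcat, which esterifies cholesterol on lipoproteins, was at -0.43 ± 0.10 (adjusted p = 0.00037), -0.49 ± 0.10 (adjusted p = 0.00019) and -0.52 ± 0.12 (adjusted p = 0.00041) in 2[4]6, 6[4]10 and 2+6[8]10. Mbtps1, the Golgi protease that makes the first cut in SREBP proteins, was at -0.43 ± 0.04, -0.37 ± 0.05 and -0.40 ± 0.04. Cyp39a1, which acts on the product of CYP46A1, was at 0.46 ± 0.12, 0.41 ± 0.11 and 0.48 ± 0.12, and Stard5, a sterol-binding protein, at 0.45 ± 0.08, 0.30 ± 0.08 and 0.27 ± 0.10, each called in all 3 strategies.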

How the data were processed

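Per the labels, polyadenylated RNA of striatum was sequenced in 143 libraries. Per the submitters' processing notes, RSEM and GRCm38 were used to make the gene table. The deposited expected counts were rounded before tests, which 78.2% of nonzero values did not need. The versions, aligner, annotation and strand setting were not given in the sources used here. The other deposited table is named for FPKM, but its columns have equal sums, so it was read on a TPM scale and used for levels between genes alone. From 41135 entries, 7 for engineered sequences such as reporters were left out, with 5.91e-06% of the counts.

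edgeR 4.0.16 (R 4.3.3) quasi-likelihood tests were fitted per strategy over its 6 groups with sex, after filterByExpr and TMM. Comparisons between strategies and ages came from 1 fit of all libraries. Calls required an adjusted p (Benjamini-Hochberg, over all genes tested in a comparison) under 0.05. The p-values were not adjusted across comparisons. SE is the fold change over the square root of F. Log2 levels used a prior count of 2. DESeq2 1.42.0, other scaling, filters, covariates, blocks and left-out replicates were tried. Scripts were tested on simulated data.

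The 34 genes, their roles and the other lists were chosen with earlier results of these data known. Values by animal were given for genes called without treatment in 1 direction in at least 2 strategies, for those called in a comparison of HTT-10150, and for the largest change of each role, and a few further genes were named after their values were seen. The labels number replicates within a group and sex without stating that each is a separate mouse, so p-values measure the spread between these samples. Neither the replicate numbers nor the numbers in the library names were taken to pair mice.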

Additional observations from a re-analysis of the deposited data

Results flagged for a closer look

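The mean log2 CPM of each role, and of all synthesis enzymes, was examined in groups of 7 or 8 libraries for a library far from the rest. Of 108 combinations of a group and a score, 7 held one. Chance gives about 1 in 20 for a single combination. The combinations share genes and libraries, so they are not independent.

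The enzymes of synthesis were high in 2 WT libraries. Male replicate 1 of WT mice given HTT-10150 in 2[4]6 had 4.982, against 4.803 to 4.878 in the others of its group, and female replicate 4 of WT mice given NTC in 6[4]10 had 4.908, against 4.768 to 4.834. The same female replicate 4 was low for the transport genes, at 6.173 against 6.237 to 6.294. The sterol enzymes were high in male replicate 1 of untreated WT mice in 2+6[8]10, at 4.918 against 4.703 to 4.792, and in female replicate 2 of WT mice given NTC in 2[4]6, at 4.870 against 4.733 to 4.786. The regulators were low in female replicate 4 of zQ175 mice given HTT-10150 in 2+6[8]10, at 6.343 against 6.446 to 6.520, and high in male replicate 1 of zQ175 mice given HTT-10150 in 6[4]10, at 6.665 against 6.445 to 6.549.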

How the results depend on the processing

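Among the called pairs of a gene and a comparison, no alternative reversed a direction: 1717 of their alternative values kept the call and 262 lost it, and 116 values of uncalled pairs gained one. The 5 genes lower in zQ175 in 9 of 9 comparisons kept each of those calls in every alternative run. Numbers of called genes moved by over 1.5 times as follows, and the cause was not tested. With length and GC slopes as covariates, the genes higher in untreated zQ175 were 8 in 2[4]6 (5 as reported) and 2 in 6[4]10 (6), those for HTT-10150 over NTC in zQ175 of 2+6[8]10 were 0 (2), and those for sex were 2 in 2[4]6 (6) and 2 in 2+6[8]10 (1). With only the groups compared, the genotype calls under HTT-10150 in 2[4]6 were 9 (14). Without the libraries that stand apart, 1 call for HTT-10150 over NTC was left (2). Without the filter on low counts, the sex calls in 2[4]6 were 3 (6) and those of WT in 2+6[8]10 over 2[4]6 were 4 (7). DESeq2 called 2 for sex in 2+6[8]10 (1) and 1 for the genotype effect between sexes in 6[4]10 (0).

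Leaving out 1 replicate number removed each library of that number, so these runs had smaller groups. It gave 2 to 4, 1 to 5 and 1 to 5 genes higher in untreated zQ175 of 2[4]6, 6[4]10 and 2+6[8]10, and 5 to 8, 6 to 10 and 7 to 9 lower. Under HTT-10150 it gave 8 to 11, 11 to 16 and 11 to 14 genotype calls, under NTC 9 to 12, 10 to 14 and 8 to 12, for HTT-10150 over NTC in zQ175 of 2+6[8]10 1 to 2, and for sex 1 to 10 in 2[4]6 and 0 to 1 in 2+6[8]10. For age it gave 2 to 13 and 0 to 2 in zQ175 and 1 to 4 and 0 to 7 in WT of 6[4]10 and 2+6[8]10.

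With the replicate number as a block, 9 genes were lower in untreated zQ175 of 2[4]6 (6), and the genotype effect differed between 2+6[8]10 and 2[4]6 in 1 gene (0), Srebf2 (adjusted p = 0.0479). Same-numbered libraries of different groups had a median correlation of deviations of 0.098, 0.041 and 0.038 in 2[4]6, 6[4]10 and 2+6[8]10, and 60 of 120, 39 of 120 and 31 of 110 pairs were above 0.1. For libraries that share the number in the library name it was 0.132, 0.081 and 0.042, with 24 of 40, 14 of 33 and 11 of 35 pairs above 0.1. Pairs with other replicate numbers had medians of -0.036, -0.017 and -0.017, and 79 of 360, 69 of 360 and 70 of 350 were above 0.1. Libraries that share a number were thus more alike than others, most in 2[4]6, and the main fits hold no term for this. With that number as a block, the calls for HTT-10150 over NTC in zQ175 of 2+6[8]10 were 2 (2), and the other 11 treatment comparisons kept 0. RLE in place of TMM moved the median of all genes by at most 0.0081 (log2). Alternatives with covariates and left-out libraries were chosen after seeing the data.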

Other observations

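Genes of fatty acid synthesis are, like the cholesterol genes, known targets of SREBP factors. Of 14 tested, 5 to 9 were lower in zQ175 and 1 to 3 higher across the 9 genotype comparisons, in which 15.9% to 21.4% of all genes were lower and 15.3% to 20.7% higher. Fads1 and Fads2, the desaturases of polyunsaturated fatty acids, were called lower in untreated zQ175 of each strategy. Fads1 was at -0.24 ± 0.03, -0.26 ± 0.04 and -0.20 ± 0.02 (log2, SE) in 2[4]6, 6[4]10 and 2+6[8]10, and Fads2 at -0.23 ± 0.05, -0.26 ± 0.06 and -0.15 ± 0.04. Scd2, a stearoyl-CoA desaturase, was at -0.16 ± 0.03, -0.21 ± 0.05 and -0.16 ± 0.04, called lower in each. Pnpla3, a lipid droplet lipase, was called higher in 2[4]6 at 0.50 ± 0.11 and in 6[4]10 at 0.32 ± 0.11, and was 0.20 ± 0.12 in 2+6[8]10 (adjusted p = 0.18).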
